A study of Mus musculus with 2 samples.

Results

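The 10 genes described here are a list of red cell metabolic and antioxidant enzymes, with 1 water channel and 1 glucose transporter: Car1, Car2, Aqp1, Slc2a1, Pklr, Bpgm, Prdx2, Cat, Gpx1 and Blvrb. They were taken as a named list of 10 among the 21938 protein-coding genes of the mouse annotation. The rule itself uses no measured value, but the list was chosen with earlier results of these data known. The data are DNase-seq, an assay that sequences the ends left where DNase I cuts accessible chromatin, from whole spleen of male B6CASTF1/J mice aged 10 days. These animals are F1 hybrids of C57BL/6 and CAST/EiJ. The series held 2 libraries of 1 group, biological replicates 1 and 2, whose labels number the males separately under a shared donor identifier. There was no treatment, no second age and no second genotype, so every value below is a description, with no test. Positions are on mm10, and a position relative to a gene is counted in bp from the midpoint of a site to the gene's annotated outer start, with a minus sign for upstream.

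Mature red cells have no nucleus and no mitochondria and live on glucose taken up from plasma, which glycolysis turns into ATP and into the bisphosphoglycerate that tunes oxygen binding by hemoglobin. Carbonic anhydrases and aquaporin move carbon dioxide and water, and catalase, glutathione peroxidase and peroxiredoxin remove the peroxides that arise beside oxygenated heme. These genes are transcribed in nucleated erythroid precursors, which the spleen of a young mouse still makes, but most of them are also used by other cell types. Spleen was measured in bulk, so fewer cells of a type and less accessible DNA per cell cannot be told apart.

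Each library's peaks were called by the authors, and each peak carried a signal, a density of cuts scaled to the library. Overlapping peaks of both libraries were merged into 1 site. A promoter site lay within 500 bp of any annotated transcription start, and a distal site lay outside all such windows. Replicate 1 had 130476 peaks and replicate 2 had 95847, and the scale of the signals differed: over the strongest promoter site of each gene, the median of log2(replicate 1 signal / replicate 2 signal) was 1.29 (SD 0.41 over genes). Signals are therefore read inside each library, and the libraries are set against each other by this ratio beside its median over all genes. Read totals were not used here, and absolute depth is unknown.

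In both libraries a peak lay at the promoter of all 10 genes, against 60.7% of protein-coding genes. The call was lost at Car1 with the shorter deposited list (9 of 10 genes, against 56.2%) and among peaks at or above the median signal (9 of 10, against 52.4%), and at Pklr under reciprocal overlap (9 of 10, against 57.3%). The strongest promoter signals were those of Blvrb, at 28.5 in replicate 1 and 11.2 in replicate 2, and of Bpgm, at 26.5 and 13.9. Both genes lay above the 96th percentile of promoter-class sites in each library. Cat followed at 16.2 and 6.19, and Gpx1 at 13.1 and 5.82. Slc2a1 (7.52 and 2.59), Prdx2 (6.83 and 4.38), Aqp1 (4.31 and 3.05) and Car2 (3.65 and 2.29) formed a middle group. Their order differed between the libraries: Slc2a1 led the middle group in replicate 1, and Prdx2 in replicate 2. Pklr was low at 1.32 and 0.796, and Car1 was the weakest at 0.206 and 0.343. The median over the 10 genes was 7.17 in replicate 1 and 3.71 in replicate 2, beside 8.59 and 3.56 over all genes with a promoter site in both libraries.

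**Figure D1:**
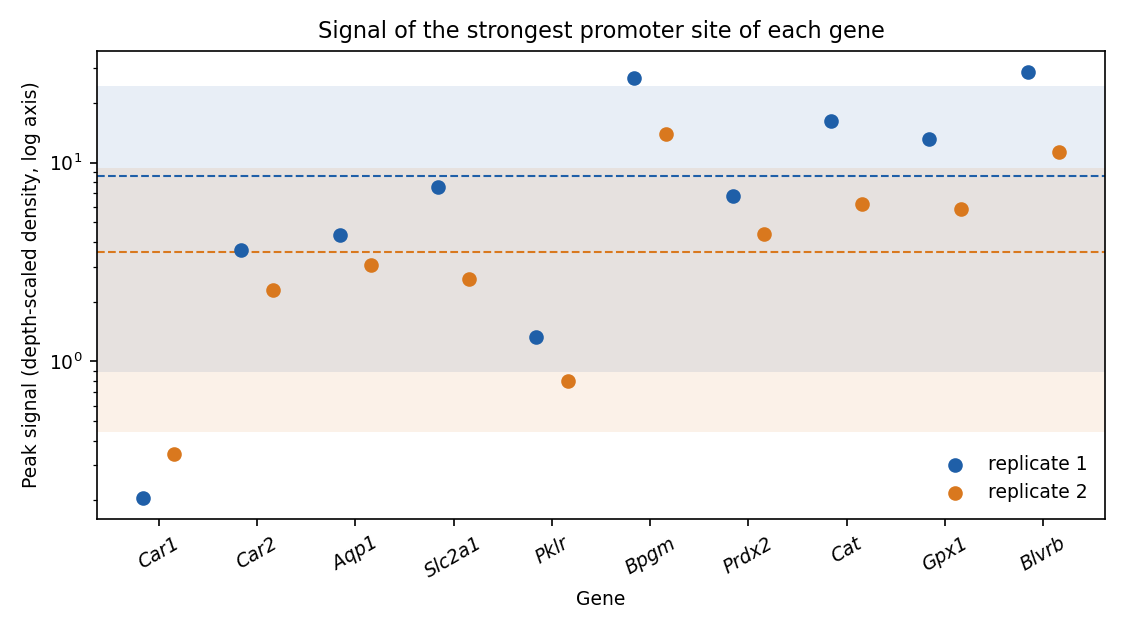
Signal of the strongest promoter site of each gene on a log axis, 1 point per library (blue, replicate 1; orange, replicate 2), grouped by role from left to right. Dashed lines are the medians over all genes with a promoter site in both libraries (8.59 and 3.56) and shaded bands run from the 10th to the 90th percentile; Blvrb and Bpgm lie above the band of their library and Car1 below it.

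Within their spans and 50 kb either side, the 10 genes had 154 sites in both libraries, of which 96 were distal, 19 lay at the gene's own promoters and 39 at starts of neighbouring genes. No site fell in the windows of 2 of the genes. The median window held 13.5 sites and 8 distal sites, against 8 and 4 over all protein-coding genes. The spread was wide: the Prdx2 window had 35 sites, Blvrb 23, Aqp1 20, Gpx1 19 and Pklr 16, while Car1 had 1. Footprints, stretches of bases protected from cutting inside a peak, were listed by the authors for each library, and 136 of the 154 sites (88.3%) held footprints of each library, against 88% of all sites.

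**Figure D2:**
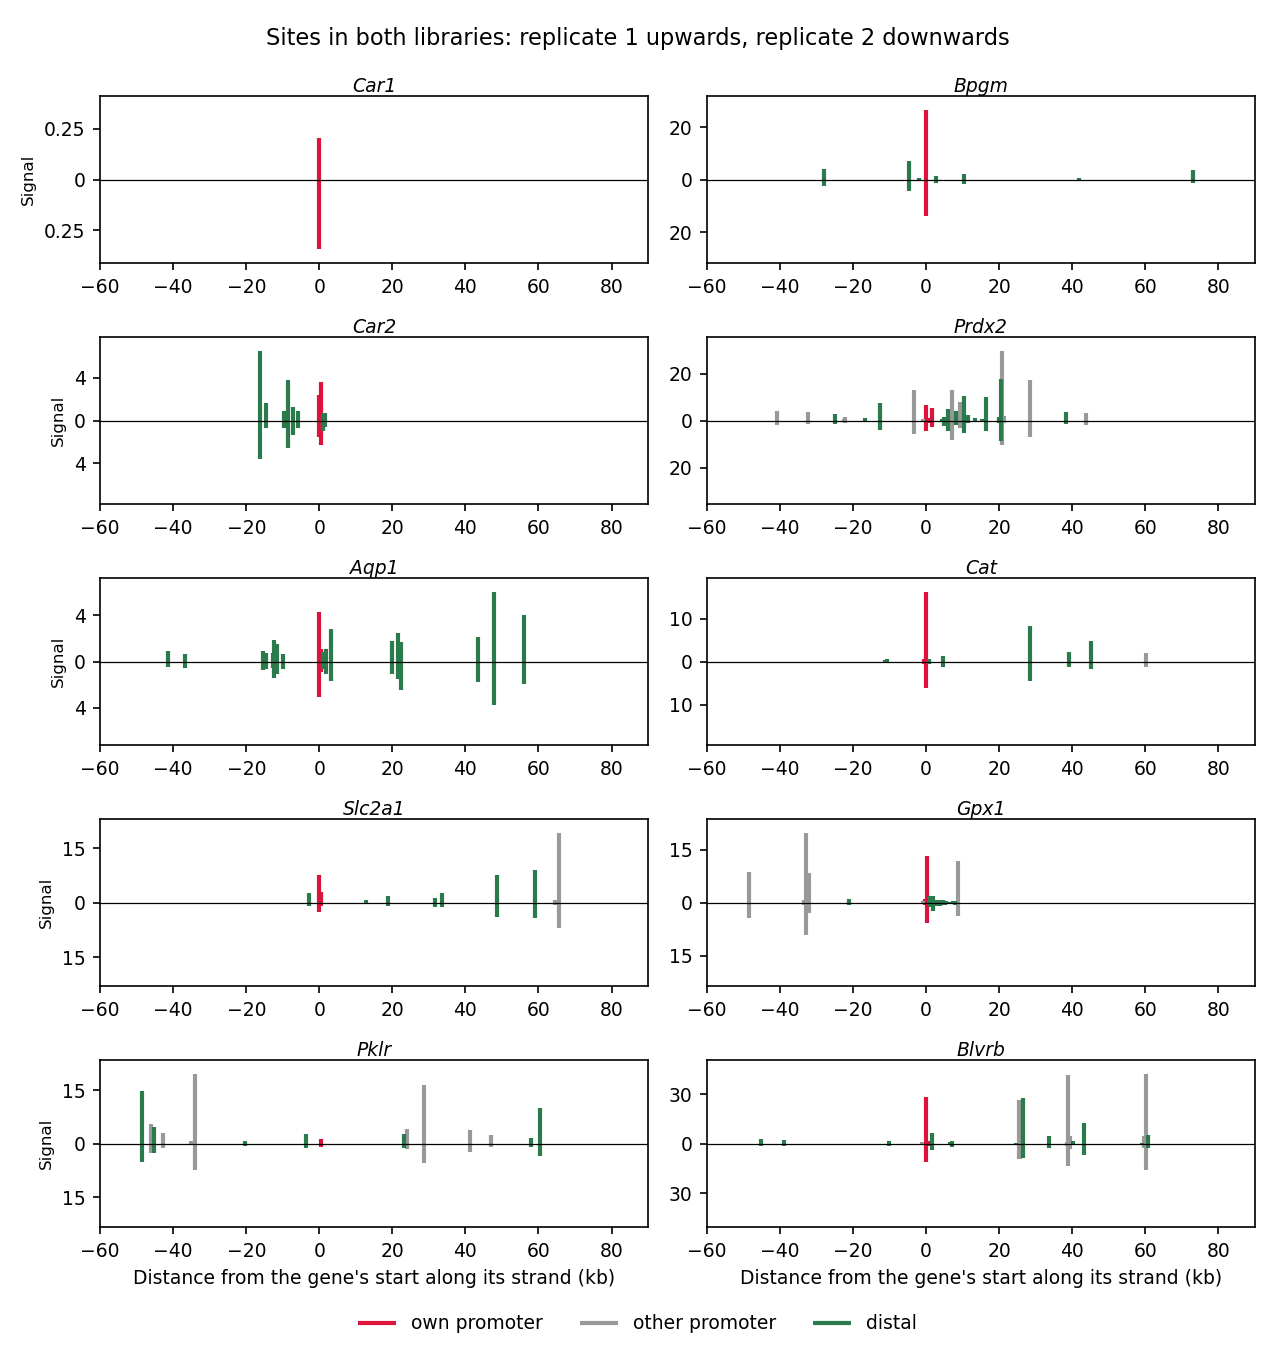
Every site found in both libraries within each gene and 50 kb either side, by distance from the gene's start along its strand; bars rise with the replicate 1 signal and fall with the replicate 2 signal, on an axis of its own for each gene (red, own promoter; grey, promoter of another gene; green, distal). Car1 has 1 site, the Car2 sites lie between -16282 and 1667 bp, and the low green bars of Gpx1 crowd the first 8065 bp after its start.

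Letters of known binding sites were searched on both strands in the 200 bp around each site's midpoint. At sites narrower than 200 bp this stretch ran past the site's edges, and letters found there were counted for the site. They were AGATAA for GATA factors; CTG, 8 bases of any kind and AGATAA for GATA1 with TAL1; CCNCNCCC for KLF factors; GCTGANTCA for NF-E2; TGACNNNGC for the antioxidant response element, ARE; CCGGAA for ETS factors; CCAAT for NF-Y; and CC, any 3 bases, AGG, any 1 base and GGC for CTCF. Every match of the GATA1 with TAL1 letters is also an AGATAA match, and both NF-E2 matches in the distal sites of these genes were also ARE matches on the other strand. A match is a description of the letters, not a bound site. The sequences printed below are reference sequence of GRCm38 (mm10), whereas the mice carried 1 CAST/EiJ genome copy. They are written 5′ to 3′ on the gene's strand, with bases inside footprints of both libraries in capitals. The middle 50 bp of the 27 sites checked (the strongest promoter site and the strongest distal sites of each gene, and 1 further Car2 peak) occurred once each in the genome.

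Carbonic anhydrase 1 and carbonic anhydrase 2, neighbours on chromosome 3 that interconvert carbon dioxide and bicarbonate, had opposite landscapes. Car1 (ENSMUSG00000027556, chr3:14766216-14808368, minus strand) is an abundant protein of the mature red cell. Its window held a single site, 300 bp wide, at -83 bp. The signal there was 0.206 in replicate 1 and 0.343 in replicate 2, so Car1 was the only one of the 10 genes whose promoter signal was higher in replicate 2. Its log2 ratio of -0.74 lay at the 0.411 percentile of promoter-class sites. The lowest false discovery rate in the deposited lists was 0.00173 in replicate 1 and 3.72e-06 in replicate 2, and 1 footprint overlapped between the libraries. A replicate 1 peak of signal 0.195 lay at 5832 bp, near an annotated internal start, with no overlapping peak in replicate 2. The part of the Car1 promoter site outside annotated untranslated sequence is shown because it was the least accessible promoter of the group; its CCAAT letters, at bases 117 to 121, lay outside shared footprints.
Car1 promoter (chr3:14808369-14808550, minus strand): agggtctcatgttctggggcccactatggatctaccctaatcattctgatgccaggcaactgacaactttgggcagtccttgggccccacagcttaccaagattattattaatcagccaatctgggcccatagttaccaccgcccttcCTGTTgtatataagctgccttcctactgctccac

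Car2 (ENSMUSG00000027562, chr3:14886273-14900770, plus strand), the high-activity isoform, had 11 sites, 9 of them distal and 7 of those upstream. Its strongest promoter site, over an exon at 368 bp, had signals of 3.65 and 2.29, and a second one at -72 bp had 2.39 and 1.57. Among distal sites the strongest lay at -16282 bp, inside the neighbouring gene Car3, with 6.52 and 3.58, above the promoter in both libraries. It held the CTCF letters, at bases 84 to 95 of the sequence below, wholly inside a shared footprint. Closer to Car2, a site at -8482 bp had 3.80 and 2.52 and held AGATAA on both strands (bases 10 to 15, and 41 to 46 as TTATCT), neither in a shared footprint. At -7162 bp, 1.29 in replicate 1 stood beside 1.35 in replicate 2, again with AGATAA. Inside the gene but outside its promoters, the strongest site was in an intron at 1108 bp, with 0.705 and 0.955. The Car2 sites in both libraries had a median distal log2 ratio of 0.44, and 2 of 9 were higher in replicate 2.

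A strong peak of 1 library alone also lay upstream of Car2. This replicate 2 peak at -11702 bp had a signal of 4.07, a lowest false discovery rate of 1.29e-28 and 3 footprints. Replicate 1 had no overlapping peak, no footprint and no base listed below a false discovery rate of 0.05 in these 180 bp. Of the 19909 sites of replicate 2 alone in the genome, 20 (0.1%) were as strong or stronger. In all 10 windows the only stronger peaks of 1 library were those of replicate 1 at 42983 and 42763 bp from Blvrb (6.90 and 6.11), which lay next to a site found in both. These peaks were singled out after their values were seen. Of the sites of 1 library in the Car2 window, 6 were found in replicate 1 alone and 7 in replicate 2 alone. Over the 10 windows, 69 were in replicate 1 alone and 33 in replicate 2 alone (32.4%), beside 27.1% in replicate 2 alone over the genome; Gpx1 had 3 and 3, Bpgm 4 and 3, and Slc2a1 6 and 0. The sequences below set the footprinted site inside Car3, the replicate 2 peak (capitals mark footprints of replicate 2) and the AGATAA site side by side.
Car2 -16282 (chr3:14869901-14870080, plus strand): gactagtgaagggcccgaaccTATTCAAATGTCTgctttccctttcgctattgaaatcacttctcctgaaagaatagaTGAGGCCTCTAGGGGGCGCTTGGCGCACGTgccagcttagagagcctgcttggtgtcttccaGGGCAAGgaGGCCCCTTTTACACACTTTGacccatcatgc
Car2 -11702 (chr3:14874481-14874660, plus strand): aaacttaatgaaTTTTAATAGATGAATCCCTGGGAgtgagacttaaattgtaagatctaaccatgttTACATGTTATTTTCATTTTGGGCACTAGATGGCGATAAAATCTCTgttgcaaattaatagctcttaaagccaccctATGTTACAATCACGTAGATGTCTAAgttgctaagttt
Car2 -8482 (chr3:14877701-14877880, plus strand): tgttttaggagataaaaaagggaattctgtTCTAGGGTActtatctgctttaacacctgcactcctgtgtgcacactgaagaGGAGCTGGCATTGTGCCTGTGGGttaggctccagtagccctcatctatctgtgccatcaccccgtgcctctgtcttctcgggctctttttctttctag

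Aqp1 (ENSMUSG00000004655, chr6:55336432-55348555, plus strand), the water channel of the red cell membrane, had the highest count of distal sites among the 10 genes, 18, of which 9 were upstream and 11 had Aqp1 as the nearest gene. No site found in both libraries in its window lay at another gene's start. Its strongest promoter site at -51 bp had 4.31 in replicate 1 and 3.05 in replicate 2, and the log2 ratio of 0.50 was, after Car1, the lowest of the group. The strongest site inside the gene, in the intron at 3199 bp, had 2.85 and 1.67 and held AGATAA at 2 places. Its strongest distal site lay far downstream at 47709 bp inside Ghrhr, with 6.03 and 3.73, above the promoter in both libraries. At 22449 bp the order of the libraries turned over, with 1.66 in replicate 1 and 2.47 in replicate 2, a log2 ratio of -0.57. AGATAA letters occurred in 5 of the 18 distal sites. The promoter and the intronic site are shown for the contrast in their footprints: a KLF match of the promoter (bases 109 to 116) overlapped a shared footprint, while both AGATAA matches in the intron (bases 97 to 102 and 142 to 147) lay outside shared footprints.
Aqp1 promoter (chr6:55336281-55336431, plus strand): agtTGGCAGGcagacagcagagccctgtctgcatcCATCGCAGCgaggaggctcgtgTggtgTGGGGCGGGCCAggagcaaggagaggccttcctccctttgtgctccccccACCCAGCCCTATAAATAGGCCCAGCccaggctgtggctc
Aqp1 3199 (chr6:55339531-55339730, plus strand): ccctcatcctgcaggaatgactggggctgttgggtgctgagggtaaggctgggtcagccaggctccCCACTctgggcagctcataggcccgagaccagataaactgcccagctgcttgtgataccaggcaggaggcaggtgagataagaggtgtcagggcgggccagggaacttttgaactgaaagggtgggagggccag

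Slc2a1 (ENSMUSG00000028645, chr4:119108711-119137983, plus strand) encodes the glucose transporter GLUT1. Its promoter site at 30 bp had 7.52 and 2.59, a log2 ratio of 1.54, the highest of the 10 genes and at the 87.5 percentile of promoter-class sites. A second promoter site at 510 bp had 2.90 and 0.879, with a log2 ratio of 1.72. The upstream site at -2780 bp had 2.66 and 0.946. None of the 7 distal sites was higher in replicate 2, as was also the case at Bpgm and Cat. Away from the promoters, the strongest site inside the gene, at 18680 bp, had 1.89 and 1.04. The site with the highest distal signal, at 59140 bp between Slc2a1 and Zfp691, had 8.92 and 4.33, above the promoter in both libraries. At the weak intronic site at 12724 bp, with 0.731 and 0.431, NF-E2 letters lay just past the site's edge, in a footprint of replicate 1.

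The enzymes of glycolysis in the list also stood at opposite ends. Pklr (ENSMUSG00000041237, chr3:89136142-89146784, plus strand), the pyruvate kinase of red cells and liver, made from a separate promoter in each, had 1 promoter site of its own, 400 bp wide at 439 bp, with 1.32 and 0.796. This was also its strongest site inside the gene. The midpoint lay 2 bp from an annotated start of Pklr, downstream of the outer start. At the outer start replicate 2 alone had a peak, at -18 bp with a signal of 0.435. Which of these starts is used in red cells was not tested. The Pklr window was crowded with other genes' promoters, 8 of 16 sites, among them the Fdps promoter at 19.5 and 7.41. A far distal site, the strongest of the window, at -48471 bp inside Rusc1, had 14.8 and 5.12 and thus exceeded the Pklr promoter, but it was nearest to Rusc1. Of the 7 distal sites, 1 had Pklr as its nearest gene, at -3591 bp, with 2.81 and 1.19. That site was stronger than the promoter in both libraries, and 1 of its 2 KLF matches (bases 67 to 74) lay in a shared footprint.
Pklr -3591 (chr3:89132451-89132650, plus strand): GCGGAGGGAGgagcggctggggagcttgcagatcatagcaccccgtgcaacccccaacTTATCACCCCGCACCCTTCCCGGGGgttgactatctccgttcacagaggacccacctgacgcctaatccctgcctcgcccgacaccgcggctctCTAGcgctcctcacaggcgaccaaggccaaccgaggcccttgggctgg

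Bpgm (ENSMUSG00000038871, chr6:34476207-34505613, plus strand) makes bisphosphoglycerate, which lowers the oxygen affinity of hemoglobin. Its promoter site at 44 bp had 26.5 in replicate 1 and 13.9 in replicate 2, at the 96.4 and 99.1 percentile of promoter-class sites, with 7 footprints overlapping between the libraries. No site found in both libraries in its window lay at another gene's start, and 6 of its 7 distal sites were nearest to Bpgm. Upstream, at -4536 bp, the strongest distal site had 7.12 and 4.40. It carried the letters of GATA1 with TAL1, and its AGATAA, at bases 74 to 79 as TTATCT, lay wholly in a shared footprint. This was the only one of the 19 AGATAA matches in distal sites of these windows that overlapped footprints of both libraries. A second match to the letters of GATA1 with TAL1 lay at 41774 bp in a weak site (0.728 and 0.565); there the footprints of both libraries touched the match but not its AGATAA. The strongest intronic site, at 10294 bp, had 2.23 and 1.71. Both distal composite matches of the 10 windows thus belonged to Bpgm.
Bpgm -4536 (chr6:34471581-34471760, plus strand): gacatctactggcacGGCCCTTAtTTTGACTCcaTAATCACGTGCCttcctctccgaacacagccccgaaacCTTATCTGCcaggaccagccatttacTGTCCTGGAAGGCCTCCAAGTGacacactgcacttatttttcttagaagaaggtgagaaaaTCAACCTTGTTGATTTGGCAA

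Peroxide removal was represented by Prdx2, Cat and Gpx1. Prdx2 (ENSMUSG00000005161, chr8:84969587-84974834, plus strand), a thioredoxin-dependent peroxidase and one of the most abundant red cell proteins, had 4 promoter sites of its own and 14 at starts of other genes. The strongest, at 54 bp, lay within 500 bp of starts of Rnaseh2a as well and had 6.83 and 4.38. The strongest site inside the gene after it lay in an intron at 1564 bp, with 5.36 and 2.51, near an internal start. It carried the letters of GATA1 with TAL1. A footprint of replicate 1 touched this match but not its AGATAA, and no footprint of replicate 2 overlapped the match. Near Hook2, at 20404 bp, the strongest distal site had 17.9 and 8.60 and held the CTCF letters in a shared footprint. Over the 3′ end of the gene, a site at 4834 bp was higher in replicate 2, with 1.42 and 2.11. Of the 17 distal sites, 1 had Prdx2 as the nearest gene, and Rnaseh2a, Junb and Hook2 are neighbours, so the strong sites of this window cannot be assigned to Prdx2 from position.

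Cat (ENSMUSG00000027187, chr2:103453849-103485160, minus strand), catalase, had a promoter site centred at -1 bp with 16.2 and 6.19 and a log2 ratio of 1.39, above the median of all genes. A weak second promoter site at -506 bp had 0.649 and 0.595. The strongest distal site, which was also the strongest in the gene outside the promoter, had its midpoint in an intron at 28339 bp, with 8.24 and 4.42. It held the CTCF letters in a shared footprint, away from the midpoint. Closer to the promoter, an intronic site at 4649 bp had 1.43 and 1.24 and held ARE letters in a shared footprint (bases 187 to 195). A site at -10602 bp, with 0.698 and 0.398, held letters that match both NF-E2 and ARE, in footprints of both libraries. None of the 7 distal sites was higher in replicate 2. In the promoter, all 3 KLF matches were wholly in shared footprints (bases 10 to 17, 77 to 84 and 82 to 89). The intronic window is shown for its ARE letters; it also reads through a tandem repeat.
Cat promoter (chr2:103485161-103485260, minus strand): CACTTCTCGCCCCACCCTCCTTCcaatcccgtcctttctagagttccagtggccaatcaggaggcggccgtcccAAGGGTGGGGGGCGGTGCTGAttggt
Cat 4649 (chr2:103480411-103480610, minus strand): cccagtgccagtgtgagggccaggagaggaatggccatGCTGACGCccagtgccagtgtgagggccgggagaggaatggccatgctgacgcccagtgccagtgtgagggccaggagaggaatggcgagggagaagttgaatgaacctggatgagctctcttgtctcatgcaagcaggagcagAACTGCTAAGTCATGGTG

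Gpx1 (ENSMUSG00000063856, chr9:108338903-108340343, plus strand), the glutathione-dependent peroxidase of the cytosol, was followed by a run of low distal sites. Its promoter site over the gene at 298 bp had 13.1 and 5.82, with a log2 ratio of 1.17. This was at the 54.9 percentile of all promoter-class sites, but below the median of 1.29 over the strongest promoter site of each gene. From 1138 to 8065 bp after the start, over the end of this short gene and the intergenic stretch before Usp4, lay 10 distal sites with signals of 0.338 to 1.82 in replicate 1 and 0.356 to 2.30 in replicate 2. In 7 of these 10 the replicate 2 value was the higher one, and their median log2 ratio was -0.06, beside 0.70 over all distal sites. The strongest of them by mean signal, at 1908 bp and 820 bp wide, had 1.77 in replicate 1 and 2.30 in replicate 2. Widths reached 960 bp (median 343 bp), against a median of 200 bp over all distal sites. AGATAA occurred in 1 of the 10 and KLF letters in 3. Those of the 10 from 5127 bp on had Usp4 as the nearest gene, so they cannot be assigned to Gpx1 from position. Beyond them, the Usp4 promoter at 8888 bp returned to 11.8 and 3.88, a log2 ratio of 1.60.

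Blvrb (ENSMUSG00000040466, chr7:27447978-27466144, plus strand), biliverdin reductase B, also acts as a flavin reductase that reduces methemoglobin in red cells. Its promoter site at -107 bp, within 500 bp of a start of Sptbn4 too, had the highest mean signal after Bpgm, 28.5 and 11.2, and 8 footprints overlapping between the libraries, the most of the 10 genes. A distal site at 1503 bp, over an exon of the gene, was its strongest other site inside the gene, with 6.67 and 3.67. It held ARE letters wholly in a shared footprint (bases 13 to 21). An intronic site at 6993 bp was higher in replicate 2, with 1.78 and 1.94, and held AGATAA and ARE letters. Further downstream, the strongest distal site lay at 26653 bp inside Sertad3, with 27.9 and 8.52. Its log2 ratio of 1.71 was the highest of all 96 distal sites. Both KLF matches of the promoter window (bases 54 to 61 and 73 to 80) were wholly in shared footprints.
Blvrb promoter (chr7:27447771-27447970, plus strand): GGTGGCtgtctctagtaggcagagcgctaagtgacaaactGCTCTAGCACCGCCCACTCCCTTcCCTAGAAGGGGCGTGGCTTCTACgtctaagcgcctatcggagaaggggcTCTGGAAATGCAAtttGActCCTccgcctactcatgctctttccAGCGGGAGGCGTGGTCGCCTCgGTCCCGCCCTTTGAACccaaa
Blvrb 1503 (chr7:27449381-27449580, plus strand): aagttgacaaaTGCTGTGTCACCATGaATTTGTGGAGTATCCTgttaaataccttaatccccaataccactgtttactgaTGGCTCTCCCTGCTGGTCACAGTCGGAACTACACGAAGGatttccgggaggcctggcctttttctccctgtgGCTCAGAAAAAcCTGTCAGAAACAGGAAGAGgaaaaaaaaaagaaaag

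Between the libraries, the promoters of the group leaned toward replicate 2 relative to the genome. The median log2 ratio of the 10 strongest promoter sites was 0.83 (SD 0.65), beside 1.29 (SD 0.41) over all genes, and 7 of the 10 lay below that median. Cat, Blvrb and Slc2a1 lay above it. Against promoter sites of like signal, the median difference was -0.34 (log2), from -1.16 at Car1, -0.71 at Aqp1 and -0.66 at Prdx2 to 0.26 at Slc2a1. Distal sites in the windows had a median of 0.60 (SD 0.55), beside 0.70 (SD 0.57) over all distal sites. Of these 96, 16 (16.7%) were higher in replicate 2, against 12.2% of all distal sites. The Gpx1 window held 7 of the 16, and those from 5127 bp on were nearest to Usp4. The remainder were 2 each in the windows of Car2, Prdx2, Blvrb and Aqp1 and 1 in that of Pklr.

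**Figure D3:**
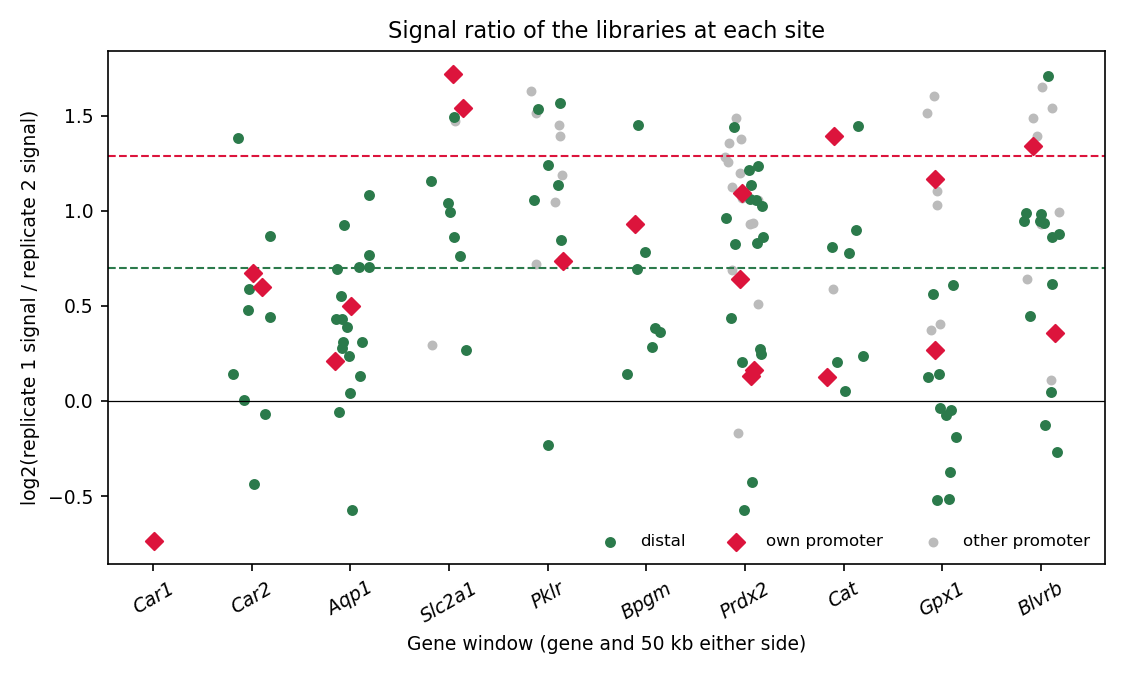
The log2 ratio of replicate 1 to replicate 2 signal at each of the 154 sites, by gene (red diamonds, own promoter; green, distal; grey, promoter of another gene; points are spread sideways for legibility). Dashed lines are the medians over all genes for the strongest promoter site (red, 1.29) and over all distal sites (green, 0.70). Car1 lies lowest at -0.74, and 7 distal points of the Gpx1 window lie below 0.

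Markers of the cell types that spleen can hold differed in this ratio. All 5 red cell markers reported (Hbb-bs, Hba-a1, Slc4a1, Klf1 and Epor) had a promoter peak in both libraries, with a median log2 ratio of 0.48 (range 0.02 to 1.52) and summed signals of 37.3 and 19.0; the globin genes have near-identical copies, so their values are uncertain. Both B cell markers reported (Cd79a and Pax5) did too, with log2 ratios of 1.78 and 1.76 and sums of 13.5 and 3.98. Of 3 T cell markers, Lck had a peak in both (log2 ratio 1.38), Cd3e in replicate 1 alone and Cd4 in neither (sums 15.3 and 5.70). Of 3 macrophage markers, Csf1r had one (0.555 and 0.377, log2 ratio 0.56), and Spic and Adgre1 had none. Itga2b had 14.4 and 5.17 (log2 ratio 1.48) while Pf4 had none. The endothelial Kdr and Cdh5 summed to 1.95 and 1.15, with log2 ratios of 0.94 and 0.53. Ratios below the 1.29 of all genes were thus not limited to the red cell markers. The part that cell makeup played in the ratios of the 10 genes was not tested.

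Other genes of the same pathways were open throughout. A promoter peak in both libraries was present in 12 of 12 glycolysis genes, 9 of 9 genes of the pentose phosphate and glutathione pathways and 10 of 10 genes of antioxidant defence and heme breakdown. Over all protein-coding genes the share was 60.7%. In glycolysis the highest mean signal was that of Pfkl, a phosphofructokinase, at 27.5 and 9.78, and the lowest that of Ldhb, a lactate dehydrogenase, at 0.915 and 0.498. By the mean of both libraries, Taldo1 (32.7 and 9.30) led the pentose phosphate and glutathione genes, although Gss was higher in replicate 2 (24.5 and 10.7), and glutathione reductase Gsr (5.20 and 2.34) was lowest. Gpx4, the glutathione peroxidase of lipids, reached 37.5 and 12.9. Heme oxygenase Hmox1 had the lowest mean of its list, at 4.95 and 1.53, although Nqo1 was lower in replicate 1 (4.49 and 2.51). Their median log2 ratios, 1.36, 1.47 and 1.17, were nearer to the 1.29 of all genes than the 0.83 of the 10 genes was.

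Relatives of the 10 genes best known from other tissues were mostly closed. Of 14 such genes, 3 were open at the promoter in both libraries, against 60.7% of protein-coding genes. Slc2a4, the insulin-responsive glucose transporter, had 24.2 and 8.96, and Pkm, the pyruvate kinase of most tissues, 8.98 and 3.47. Car9 had 1.88 and 0.837. Car3, Car4 and Gpx3 had a peak in replicate 1 alone, at 0.233, 0.300 and 0.555. Car6, Pgam2, Gpx2, Gpx5, Aqp2, Aqp4, Aqp5 and Slc2a2 had none. Pkm thus had a stronger promoter than Pklr in both libraries, and Car9 a stronger one than Car1.

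Over the 96 distal sites, AGATAA was present in 16 (16.7%, exact Clopper-Pearson 95% interval 9.84 to 25.7%), against 10.5% of all 48823 distal sites, a share that lies inside that interval. Sites of 1 window are neighbours and intervals cover counting error only. Prdx2 had no distal site with AGATAA, and Aqp1 had 5, Car2 3, and Bpgm and Cat 2 each. Among the 40 distal sites whose nearest gene was 1 of the 10, 10 (25%) held AGATAA. The distal sites with AGATAA had a median log2 ratio of 0.27 (from -0.57 to 1.15), beside 0.54 over all distal sites with these letters. The 13 distal sites with CTCF letters ranged from 0.78 to 1.45 with a median of 0.94, beside 0.91 over all such sites; none was higher in replicate 2.

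For the other letters, the share over all distal sites lay inside the 95% interval of the 96. KLF letters were in 31 of 96 (32.3%) against 27.3%, ARE in 12 (12.5%) against 9.64%, ETS in 7 (7.29%) against 4.85%, CCAAT in 18 (18.8%) against 20.2%, and CTCF in 13 (13.5%) against 12.7%. NF-E2 letters and the letters of GATA1 with TAL1 were in 2 sites each (2.08%), against 1.83% and 0.883%. At promoter-class sites, KLF letters were in 44 of 58 (75.9%, interval 62.8 to 86.1%) against 54.8%, but most of those 58 belong to neighbours. Among the 19 own promoter sites, 12 held KLF letters, beside the 54.8% of all promoter-class sites. They lay in 8 of the 10 genes, and the share of all genes with such a site was not computed. Car1 and Pklr had none, and for Pklr the search covered the site at 439 bp, not the outer start. AGATAA was in 2 of the 19, at Prdx2 and Blvrb, beside 4.05% of all promoter-class sites.

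Footprints and letters coincided unevenly. All 13 CTCF matches in distal sites overlapped footprints of both libraries, against 89.4% of such matches over all distal sites. Of the 14 ARE matches, 7 did, against 22.9%, and of 64 KLF matches 25 (39.1%) did, against 38.0%. Of the 19 AGATAA matches 1 (5.26%) did, against 15.0%; 11 of the 19 overlapped a footprint of at least 1 library, against 39.1% of such matches over all distal sites, so the count lay below the genome's share for footprints of both libraries and above it for footprints of either. Shared footprints covered 17.1% of the bases searched in these distal sites and 14.1% in all distal sites. Matches of 1 site are not independent, and overlap with a footprint was counted from 1 base.

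**Figure D4:**
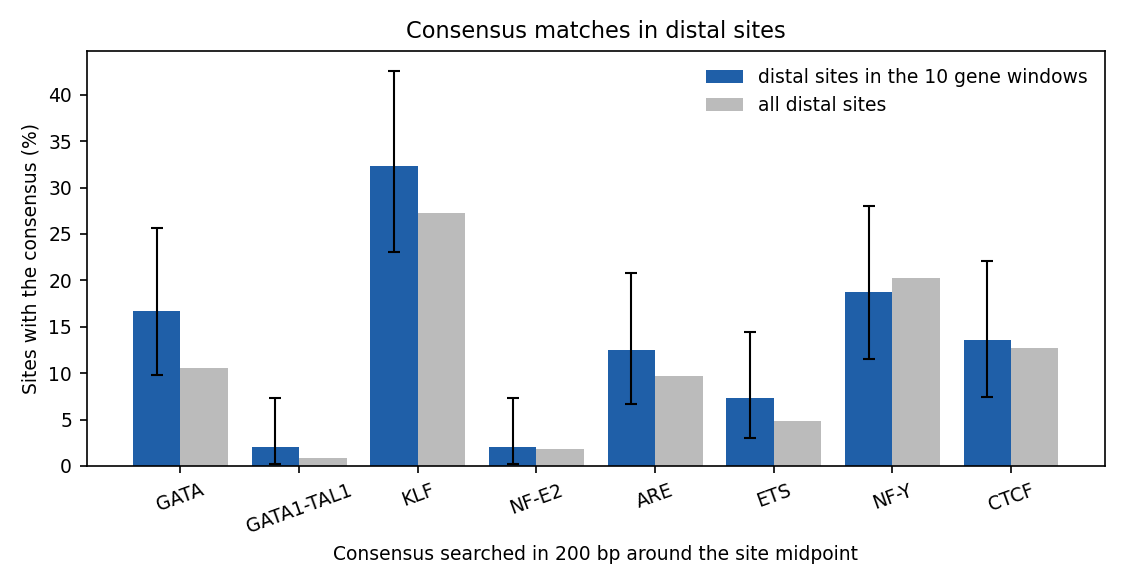
Share of distal sites with each set of letters in the 200 bp around the midpoint: blue, the 96 distal sites of the 10 windows, with 95% Clopper-Pearson intervals as error bars; grey, all 48823 distal sites. The grey value lies inside the interval for every set, including GATA (10.5% beside 16.7%).

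Of the 9 genes with a distal site, 5 (Car2, Aqp1, Slc2a1, Pklr and Prdx2) had a strongest distal site above their own promoter in both libraries, against 31.8% of all genes with a promoter site and a distal site. Bpgm, Cat, Gpx1 and Blvrb did not. Theirs were the strongest promoters of the group, and the comparison itself depends on the promoter signal. In 3 of the 9, Car2, Prdx2 and Cat, the strongest distal site held the CTCF letters, against 25.6% of those genes. The strongest distal site was nearest to the gene itself at Bpgm and Gpx1 and to a neighbour at the others.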

How the data were processed

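DNase-seq peaks, footprints and false discovery rates of 2 spleen libraries of 1 group were used. Peak signal, deposited by the authors, is a density scaled per library by a constant that is not stated. The FDR column, deposited by the authors, holds p-value-like rates listed below 0.05. Footprints carry the constant 0.01 and were not ranked. Per the deposited notes, every file was made from the filtered mm10 alignment of that library alone. The aligner and both callers remain not given in the sources used here.

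Peaks of the longer list were merged by overlap of at least 1 bp; each site took its highest signal per library. Genes came from GENCODE M21 and sequence from the GRCm38 RefSeq FASTA. Sites of like signal were the 1001 nearest in rank of mean signal. Letters were searched with Python 3.11.15, numpy 2.4.6 and pysam 0.24.0, and intervals came from scipy 1.17.1. The code was tested on simulated data.

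The 10 genes and all lists were chosen with earlier results of these data known. Part of the red cell and B cell marker lists is not reported here, and the values given for these lists are over the genes named. For every gene, the strongest promoter, inside and distal sites are named, and from each pathway list the highest, the lowest and all genes without a peak in both libraries; other sites, Pkm, neighbouring genes and the 6 printed sequences that are neither a promoter nor the strongest distal site of a window were chosen after their values were seen. Promoter sequence inside annotated UTRs was left out. The 2 libraries carry no contrast, so nothing was tested. Alternatives were the shorter list, peaks at or above the median signal, reciprocal overlap, other promoter windows (1000 and 100 bp), other gene windows (25 and 100 kb), nearest gene, footprints wholly inside, 100 bp for letters, and leaving out each replicate.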

Additional observations from a re-analysis of the deposited data

How the results depend on the processing

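Of 64 recomputed values, 58 stayed within 1.5 times the count reported or, for shares and ratios, within the interval or 1 SD, and 6 did not. Sites in the windows rose from 154 to 241 with 100 kb either side and fell to 60 when each site went to its nearest gene, where distal sites were 40. Leaving out a replicate, the windows held 188 to 229 sites, of which 123 to 153 were distal, the higher counts without replicate 2. The log2 ratios could not be computed without a replicate. Relative to sites of like signal, an alternative added after seeing the data, the median log2 ratio was -0.34 at promoters and -0.23 at distal sites. Both are counted among the 6. They are differences from the median of like sites, a quantity unlike the ratios reported, so that count says nothing about how stable the ratios are. The distal median log2 ratio, 0.60 as reported, was 0.34 for sites nearest to the 10 genes and 0.44 within 25 kb, within the SD of 0.55 over the sites. The calls at Car1 and Pklr were lost as described with the promoters. AGATAA was in 12.4% to 25% of distal sites over all settings. No paired analysis was possible because the result comes from no test. With the depth unknown, a peak found in 1 library alone does not show that the site is closed in the other.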
